A study of Mus musculus with 8 samples.

Results

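The miR-148 and miR-152 family of miRNAs (short RNAs cut from the 5p or the 3p arm of a hairpin precursor) comprised 6 of the 1966 mature miRNAs in the count table. The members were mmu-miR-148a-3p, mmu-miR-148a-5p, mmu-miR-148b-3p, mmu-miR-148b-5p, mmu-miR-152-3p and mmu-miR-152-5p, taken by name and not by their values, and are written without the species prefix from here on. To ask whether the family responds to inflammation in cartilage cells, its abundance was compared between primary articular chondrocytes that received vehicle and those that received IL-1β. IL-1β (interleukin-1β) is a proinflammatory cytokine that activates NF-κB. The cells were isolated from femoral head cartilage of wild-type mice aged 3 weeks, were grown in serum-containing medium, and were treated with vehicle (n = 4 libraries) or with 1 ng/ml IL-1β (n = 4 libraries) for 24 h. The labels do not say whether the libraries of a group were separate animals, pools or cultures, so that the tests below measure the spread between these libraries.

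A mature miRNA guides the RNA-induced silencing complex to messenger RNAs, mainly by pairing of its seed, bases 2 to 8 from its 5′ end. One arm of a hairpin is usually kept as the guide, while the other, the passenger, is degraded. The 3p arms of miR-148a, miR-148b and miR-152 are the usual guides of this family and are best known as repressors of the DNA methyltransferase Dnmt1. In cartilage, miR-148a has been linked to matrix production and to restraint of hypertrophic and catabolic genes.

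The mature sequences show what the members have in common. They are RefSeq entries (GRCm38), printed 5′ to 3′ with the seed in capitals, and all 6 members matched an entry.
miR-148a-3p: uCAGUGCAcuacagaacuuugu
miR-148b-3p: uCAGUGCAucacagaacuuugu
miR-152-3p: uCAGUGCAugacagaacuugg
miR-148a-5p: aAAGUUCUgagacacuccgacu
miR-148b-5p: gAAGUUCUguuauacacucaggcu
miR-152-5p: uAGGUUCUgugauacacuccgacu
The 3p arms had 1 seed, CAGUGCA, which no other of the 1679 mature miRNAs in the RefSeq table carried. Counting from the 5′ end, miR-148b-3p differed from miR-148a-3p at 2 of 22 positions (C9U and U10C), just behind the seed. miR-152-3p differed from miR-148a-3p at 3 of 21 positions (C9U, U10G and U20G). Among the 5p arms, miR-148a-5p and miR-148b-5p had the same seed, AAGUUCU, whereas miR-152-5p had AGGUUCU, and neither seed occurred in another entry. Because the 3p arms differ at so few bases, reads with mismatches could be assigned to a relative. The reads were aligned with the default parameters of STAR, which tolerate mismatches, and how featureCounts was set was not stated, so that the counts of the scarcer miR-148b-3p and miR-152-3p are uncertain to that extent.

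The hairpins lie on 3 chromosomes. Mir148a (chromosome 6, 51269812 to 51269910, minus strand, GRCm38) lay outside annotated genes, with the long non-coding RNA gene Gm32479 13621 bases away as its nearest neighbor. Mir148b (chromosome 15, 103285125 to 103285221, plus strand) was intronic to Copz1, and Mir152 (chromosome 11, 96850393 to 96850465, plus strand) was intronic to Copz2. Copz1 and Copz2 are paralogs that encode zeta subunits of the COPI coat of Golgi-derived vesicles, and both are transcribed in the direction of their hairpin. A gene of the Nfe2 family of transcription factors flanked each hairpin as the nearest protein-coding gene on 1 side: Nfe2l3 at 162759 bases from Mir148a, Nfe2 at 26721 bases from Mir148b and Nfe2l1 at 20424 bases from Mir152. Messenger RNA of the host genes was not analysed here.

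Library totals ranged from 616475 to 1568367 counts, so that a single count corresponded to 0.638 to 1.62 CPM (counts per 1000000 in that library). Levels below are normalized CPM, for which the library total was multiplied by its TMM factor (a trimmed mean of log ratios between libraries). Binomial intervals cover counting error only, as no molecular identifiers were described and reads are then not independent molecules. The chondrocyte miRNAs miR-140 and miR-455 (both arms) together made up 15.6% to 16.8% of vehicle libraries and 12.4% to 15.3% of IL-1β libraries. The part of this difference in the levels of the family was not tested. Of 6 haematopoietic marker miRNAs 4 were at 0 in every library, and the list took at most 0.00638% of counts. One on this list, miR-150-5p, was counted in all 8 libraries, at 52.7 ± 8.20 (vehicle) and 35.7 ± 8.31 (IL-1β) normalized CPM (SD, n = 4). This is near the level of the family member miR-152-5p (means 41.9 and 43.6). Its log2 fold change was -0.51 (edgeR adjusted p = 0.196), and its source was not tested. The 3 muscle markers and the liver marker miR-122-5p had 0 counts, and the endothelial and epithelial lists had 8 and 7 counts in all. IL-1β replicate 4 stood apart: over 195 miRNAs that averaged 50 counts or more, its deviations from the other 3 libraries of its group had an SD of 0.40 on the log2 scale, against 0.15 to 0.23 for the other 7 libraries. Fold changes and arm ratios of the family that moved by over 1.5 times when it was left out are also given without it.

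No member of the family was past the threshold for a change with IL-1β. All 6 members passed the filter on low counts (over 1 CPM in at least 4 libraries), and 0 of 6 were called, at an adjusted p under 0.05 and an absolute log2 fold change over 0.3 (edgeR quasi-likelihood test). Over all 564 miRNAs tested, 11 were called, which is 1.95%, with 1.42% higher and 0.532% lower. None of the 6 had an unadjusted p under 0.05, in edgeR or in DESeq2, where 11.2% of all tested miRNAs had one in edgeR (63 of 564). Log2 fold changes were below 0 for 4 members and above 0 for 2, with a median of -0.08, against 0.01 over all tested miRNAs. Vehicle and IL-1β libraries overlapped for every member, whereas the groups did not overlap for 7.62% of all tested miRNAs.

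**Figure D1:**
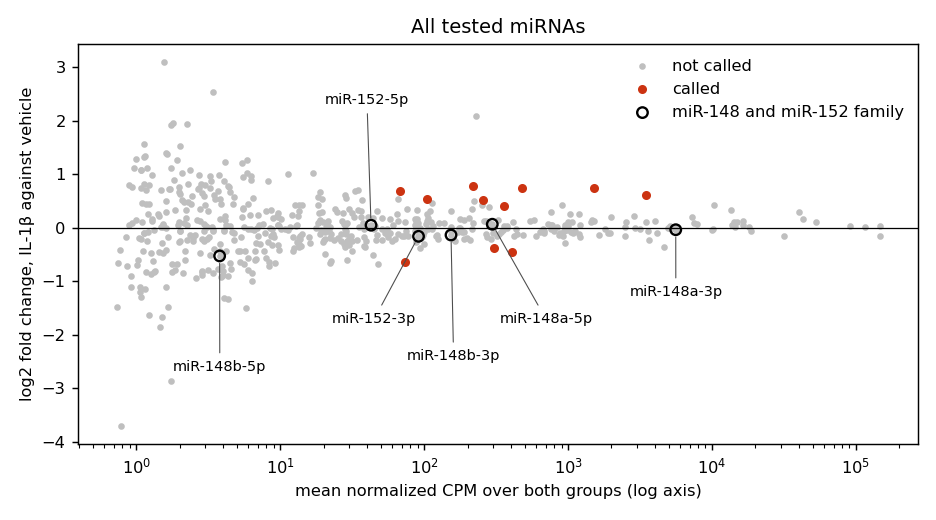
Log2 fold change (IL-1β against vehicle) of the 564 tested miRNAs against their mean normalized CPM (log axis), with the 11 called miRNAs in red and the 6 family members as open circles. The members lie between -0.52 and 0.07, and none is among those called.

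The members differed far more from each other than between treatments. miR-148a-3p, the most abundant, held 90.5% of the counts of the family and ranked 24 among the 564 tested miRNAs by mean level. The order that followed was miR-148a-5p, miR-148b-3p, miR-152-3p, miR-152-5p and miR-148b-5p, and it was the same in all 8 libraries. The ranges of neighbors in this order did not overlap. The closest pair was miR-148b-3p, whose lowest library was at 118 normalized CPM, and miR-152-3p, whose highest was at 101. Since library preparation favors some sequences over others, such differences between miRNAs are not ratios of molar amounts.

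**Figure D2:**
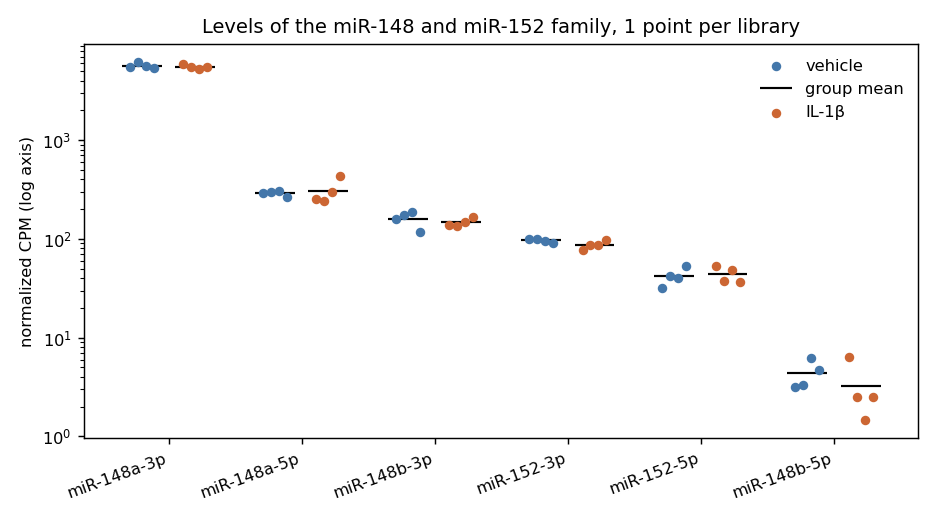
Normalized CPM (log axis) of the 6 family members in each of 4 vehicle (blue) and 4 IL-1β (orange) libraries, with black lines at the group means. miR-148a-3p sits between 5262 and 6184 and miR-148b-5p between 1.46 and 6.40, while the treatment groups overlap for each member.

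Among the guides, miR-148a-3p held a steady, high level. In vehicle replicates 1 to 4 it was at 5471, 6184, 5671 and 5304 normalized CPM, and in IL-1β replicates 1 to 4 at 5874, 5487, 5262 and 5493. The IL-1β values all fell inside the vehicle range except for replicate 3, which was slightly lower than the lowest vehicle library. Means were 5658 ± 381 (vehicle) and 5529 ± 254 (IL-1β) normalized CPM (SD, n = 4). The log2 fold change was -0.03 (SE 0.0812, 95% interval -0.20 to 0.13, edgeR adjusted p = 0.924), an interval that lies within the fold change of 0.3 asked of a call. Without vehicle replicate 2, the highest of the 8, the log2 fold change was 0.01. The interval was the narrowest of the family, behind 45076 counts. As in any measurement of bulk cultures, a change in the level per cell and a change in the share of cells that express a miRNA cannot be told apart.

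miR-148b-3p, from the Copz1 intron, was far scarcer. It was at 158, 174, 186 and 118 normalized CPM in vehicle replicates 1 to 4, and at 139, 136, 149 and 168 in IL-1β replicates 1 to 4. Every IL-1β library fell inside the vehicle range, and vehicle replicate 4, the library with the fewest counts of this miRNA (76), was the lowest. The means of 159 ± 29.5 and 147.96 ± 14.5 (SD, n = 4) gave a log2 fold change of -0.13 (SE 0.130, 95% interval -0.40 to 0.14, edgeR adjusted p = 0.757). Without vehicle replicate 4 or IL-1β replicate 4 it was -0.26 or -0.22, without vehicle replicate 2 or 3 it was -0.09 or -0.05, and it was not called in any of the fits that left out a library.

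miR-152-3p, the guide from the Copz2 intron, came nearest to a separation of the groups. Its vehicle replicates 1 to 4 were at 99.7, 101, 94.3 and 90.3 normalized CPM, and its IL-1β replicates 1 to 4 at 76.8, 86.0, 86.2 and 96.5. IL-1β replicates 1 to 3 were lower than every vehicle library, whereas IL-1β replicate 4 exceeded 2 of the 4 vehicle libraries. Means were 96.3 ± 4.85 and 86.4 ± 8.06 (SD, n = 4). The log2 fold change of miR-152-3p was -0.16 (SE 0.128, 95% interval -0.42 to 0.11, edgeR adjusted p = 0.753). An exact permutation test of log2(CPM + 1) gave a two-sided p of 0.0857, where 4 against 4 libraries allow no p below 0.0286. This was the lowest of 6 unadjusted values, and the other members had an exact permutation p from 0.343 to 0.971. Without IL-1β replicate 4 the log2 fold change was -0.21, with an edgeR adjusted p of 0.543, the lowest over its 15 alternatives. A fall to 0.746 of the vehicle level remains inside the interval, so a decrease of that size could not be told from none at this depth (740 counts over 8 libraries).

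**Figure D3:**
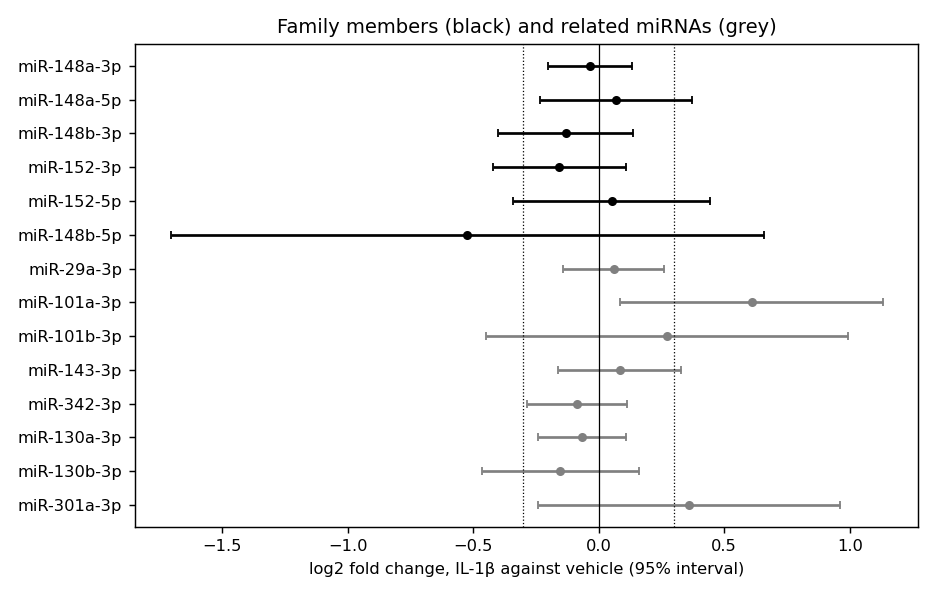
Log2 fold change (IL-1β against vehicle) with its 95% interval from edgeR for the 6 family members (black) and for related miRNAs with at least 50 counts in all (grey), where dotted lines mark ±0.3. The intervals of all 6 members include 0, and that of miR-148b-5p, with 31 counts, is the widest.

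The shares of the 3 guides in their summed counts were then compared, because a common seed means that they can pair with the same seed sites. miR-148a-3p made up 95.7% ± 0.398 of the 3p counts in vehicle and 95.9% ± 0.457 in IL-1β libraries (SD, n = 4), and lay between 95.3% and 96.5% in all libraries. miR-148b-3p made up 2.68% ± 0.404 and 2.57% ± 0.294, and miR-152-3p 1.63% ± 0.0796 and 1.503% ± 0.176 (SD, n = 4). The groups overlapped for each of the 3, and no test was run on these shares. The share of miR-148b-3p was 0.110 percentage points lower in IL-1β libraries, but 0.0385 points higher once vehicle replicate 3 was left out, and 0.225 points lower without IL-1β replicate 4. The share of miR-148a-3p was 0.238 points higher in IL-1β libraries, with 0.0618 (without IL-1β replicate 1) to 0.414 points (without vehicle replicate 4) when 1 library was left out. For miR-152-3p the difference was -0.128 points, and it ranged from -0.186 (without IL-1β replicate 4) to -0.0476 (without IL-1β replicate 1). The count of miR-148a-3p was 30.5 to 44.8 times that of miR-148b-3p in vehicle libraries and 32.7 to 42.2 times in IL-1β libraries. The part of mismatched miR-148a-3p reads in the counts of miR-148b-3p was not tested.

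The 5p arms, the usual passengers, were also measured. miR-148a-5p was at 288, 301, 302 and 266 normalized CPM in vehicle replicates 1 to 4, and at 251, 240, 295 and 434 in IL-1β replicates 1 to 4. IL-1β replicate 4 was the highest of the 8 libraries, and IL-1β replicates 1 and 2 were the lowest. The means were 289 ± 16.5 and 305 ± 89.0 (SD, n = 4), and the log2 fold change was 0.07 (SE 0.144, 95% interval -0.23 to 0.37, edgeR adjusted p = 0.905). The sign depended on that library: without IL-1β replicate 4 the log2 fold change was -0.16 (edgeR adjusted p = 0.497), the lowest adjusted p for this arm over the 15 alternatives.

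miR-152-5p, from the opposite arm of the Copz2 hairpin, was at 31.8, 42.0, 40.6 and 53.0 normalized CPM in vehicle replicates 1 to 4. In IL-1β replicates 1 to 4 it was at 52.8, 37.1, 48.2 and 36.3. All IL-1β libraries fell inside the vehicle range. The log2 fold change was 0.05 (SE 0.190, 95% interval -0.34 to 0.44, edgeR adjusted p = 0.984), and it turned negative without vehicle replicate 1, IL-1β replicate 1 or IL-1β replicate 3 (-0.05, -0.04 and -0.02). Without IL-1β replicate 4 it was 0.12. miR-148b-5p was at the edge of detection, with 3, 5, 10 and 3 counts in vehicle replicates 1 to 4 and 4, 3, 1 and 2 counts in IL-1β replicates 1 to 4. These counts were worth 1.46 to 6.40 normalized CPM. Its log2 fold change of -0.52 had an SE of 0.573 and a 95% interval from -1.71 to 0.66 (edgeR adjusted p = 0.780), so that neither a large fall nor a moderate rise could be told from no change at this depth. Leaving out 1 library gave values from -0.96 (without IL-1β replicate 1) to -0.22 (without vehicle replicate 3).

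To examine whether IL-1β shifts the use of the arms, the ratio of 5p to 3p counts was compared within libraries. Depth and scaling cancel in such a ratio, except for the 0.5 counts added to each arm, which weigh on low counts. In all 3 hairpins the 3p arm was the more abundant in each library, as it was on average in 47.9% of the 142 hairpins with both arms tested. The degree differed: the 3p arm exceeded the 5p arm by a mean of 19.6-fold for miR-148a, 39.2-fold for miR-148b and 2.39-fold for miR-152 in vehicle libraries. The 3p arms of the 3 hairpins have the same seed, but the arms of miR-152 were the least uneven.

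For miR-148a, the 5p arm took 5.01%, 4.64%, 5.05% and 4.78% of the counts of both arms in vehicle replicates 1 to 4, and 4.10%, 4.19%, 5.31% and 7.32% in IL-1β replicates 1 to 4. The vehicle libraries were tightly grouped, while the IL-1β libraries lay on both sides of them. The value of 7.32% in IL-1β replicate 4 had an exact binomial 95% interval of 6.59% to 8.10%, above the intervals of the other 7 libraries, which reached 6.07%. These intervals leave out the spread between libraries, and the difference of this library from the others was not tested. In the same library miR-148a-3p was at 5493 normalized CPM, within the range of the others. The log2 ratio of 5p to 3p differed between IL-1β and vehicle by 0.07 (SE 0.247, 95% interval -0.50 to 0.64, limma adjusted p = 0.945), and by -0.12 without IL-1β replicate 4 (limma adjusted p = 0.942).

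**Figure D4:**
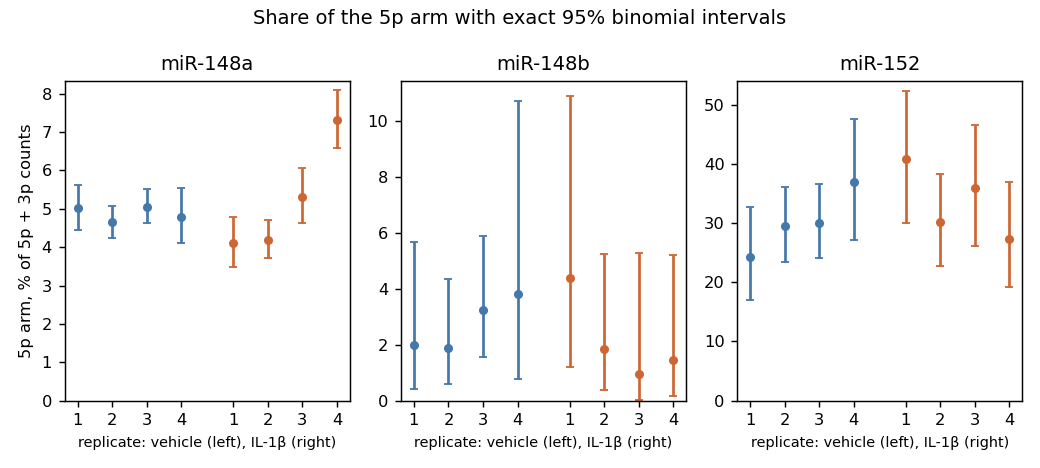
Share of the 5p arm in the counts of both arms for each hairpin and library (vehicle in blue, IL-1β in orange), with exact binomial 95% intervals and a separate axis for each hairpin. For miR-148a, IL-1β replicate 4 (7.32%) lies above the intervals of the other libraries, and for miR-148b and miR-152 the intervals of vehicle and IL-1β libraries overlap.

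For miR-152 the 5p arm made up 30.2% ± 5.24 in vehicle and 33.5% ± 5.97 in IL-1β libraries (SD, n = 4), from 24.2% in vehicle replicate 1 to 40.7% in IL-1β replicate 1. The groups overlapped, and the log2 ratio differed by 0.22 (SE 0.283, 95% interval -0.43 to 0.88, limma adjusted p = 0.905). It was 0.07 without IL-1β replicate 1 and 0.09 without vehicle replicate 1, the libraries with the highest and the lowest share. Without vehicle replicate 4 or IL-1β replicate 4 it was 0.38 or 0.36. For miR-148b the shares were 2.72% ± 0.949 and 2.17% ± 1.53 (SD, n = 4), on 1 to 10 counts of the 5p arm per library, and the log2 ratio differed by -0.35 (SE 0.443, 95% interval -1.37 to 0.67, limma adjusted p = 0.905). For miR-148b the difference ranged from -0.72 without IL-1β replicate 1 to -0.12 without IL-1β replicate 3, and was -0.14 without vehicle replicate 4. With 1 count added to each arm in place of 0.5 it was -0.24. Of the 142 hairpins tested, 0 (0%) had a limma adjusted p under 0.05 and 12 had an unadjusted p under 0.05, of which none belonged to this family.

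Other miRNAs that are known to repress DNA methyltransferases were examined beside the family. Of 9 on the list, all passed the filter and 0 were called in either direction (edgeR). An unadjusted p under 0.05 was found for 1 of the 9, a share close to the 11.2% over all tested miRNAs. The abundant ones were miR-29a-3p, which represses Dnmt3a and Dnmt3b, miR-143-3p, which represses Dnmt3a, and miR-342-3p, which represses Dnmt1. Levels of miR-29a-3p were 751 ± 54.6 and 785 ± 105 normalized CPM (SD, n = 4), and the log2 fold change was 0.06. miR-143-3p was at 272 ± 16.4 and 289 ± 60.1 and miR-342-3p at 311 ± 23.7 and 293 ± 13.2 (SD, n = 4), with log2 fold changes of 0.08 and -0.09. The one with an unadjusted p under 0.05 was miR-101a-3p, at 22.5 ± 2.60 and 33.7 ± 14.1 (SD, n = 4). Its log2 fold change was 0.61 (edgeR adjusted p = 0.299). In miR-101a-3p the IL-1β libraries ranged from 17.5 to 46.4 and overlapped the vehicle libraries. miR-101b-3p was at 8.63 ± 2.92 and 10.6 ± 2.35 normalized CPM (SD, n = 4). The remaining miR-29b-3p, miR-29c-3p, miR-126a-3p and miR-185-5p had 8 to 11 counts each over the 8 libraries. The median log2 fold change of the list, 0.27, includes these, against 0.01 over all tested miRNAs. It is the value of miR-101b-3p, which had 74 counts and an edgeR adjusted p of 0.809.

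The miR-130/301 relatives hold the last 6 bases of the seed, AGUGCA, shifted by 1 position to bases 2 to 7, which are shown in capitals in their RefSeq sequences.
miR-130a-3p: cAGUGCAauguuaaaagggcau
miR-130b-3p: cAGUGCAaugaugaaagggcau
miR-301a-3p: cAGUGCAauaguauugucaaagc
Of 7 mature miRNAs in the RefSeq table with this arrangement, 3 were tested and 0 called, and the other 4 (miR-130c, miR-6341, miR-6389 and miR-721) had 0 counts. miR-130a-3p was at 648 ± 23.6 and 619 ± 39.2 normalized CPM (SD, n = 4), between miR-148a-3p and miR-148b-3p, with a log2 fold change of -0.07 (edgeR adjusted p = 0.807). The log2 fold changes of miR-130b-3p and miR-301a-3p were -0.15 and 0.36 (edgeR adjusted p = 0.757 and 0.753). miR-130b-3p was at 75.5 ± 10.3 and 69.1 ± 9.14 normalized CPM, and miR-301a-3p at 20.4 ± 9.78 and 27.3 ± 10.7 (SD, n = 4). The mature miR-301b-3p had no RefSeq entry to match and was tested on 11 counts in 6 of the 8 libraries, with a log2 fold change of 0.23 (edgeR adjusted p = 0.989).

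Lastly, the miRNAs whose profiles over the 8 libraries were most like those of the guides were listed, from 191 candidates that averaged 50 counts or more. The correlations describe libraries that share their depth and scaling, the best of many candidates were taken, and no test was made. For miR-148a-3p they were miR-196b-5p, miR-673-3p and miR-127-5p, with Pearson correlations of log2(CPM + 1) of 0.945, 0.844 and 0.768. For miR-148b-3p they were miR-214-3p, miR-666-5p and miR-130a-3p, at 0.874, 0.820 and 0.744. For miR-152-3p they were miR-183-5p, miR-130a-3p and miR-409-3p, at 0.899, 0.898 and 0.875. miR-130a-3p thus appeared for both intronic members, and none of these 8 miRNAs was called with IL-1β (edgeR adjusted p from 0.650 to 0.992).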

How the data were processed

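Per the methods of the study, reads of the 8 libraries were trimmed (cutadapt), aligned to mm10 (GRCm38) by STAR with its default parameters, and assigned to miRNAs by featureCounts. The STAR version was 2.4.2a in the submitters' processing notes, and the methods named another. The authors deposited counts per mature miRNA and library, without pooling, as whole numbers with differing totals, and these were taken as raw counts. Whether the RUVseq correction they describe had been applied to these values was not stated and was not tested. STAR at default settings can lose or misplace reads as short as miRNAs, and the treatment of multi-mapping reads and of strand was not stated. Each library column was matched to a sample by name, and 0 columns were left over.

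Library totals (616475 to 1568367 counts) were scaled by TMM, and miRNAs over 1 CPM in at least 4 libraries were tested with the robust quasi-likelihood test of edgeR 4.0.16 (R 4.3.3, two-sided, group as the only term), with Benjamini-Hochberg adjustment over all 564. A miRNA was called at an adjusted p under 0.05 and an absolute log2 fold change over 0.3. The SE was the log2 fold change divided by the square root of F. Arm ratios, log2((5p + 0.5)/(3p + 0.5)), were tested with limma 3.58.1 over 142 hairpins. DESeq2 1.42.0 was an alternative. The fits were also run on simulated data with larger changes and no outlying library, which do not bear on changes as small as those of the family. The 6 members were taken by name, all are named, and the lists and likeness rule were chosen with earlier results of these data known. Sequences were from RefSeq and loci from GENCODE M21, both on GRCm38.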

Additional observations from a re-analysis of the deposited data

Results flagged for a closer look

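In 3 of 48 groups of 4 libraries examined, a single library was isolated: the distance to the next library spanned most of the distance between the lowest and the highest (chance gives this in about 1 in 20 groups). None of the 3 was a member of the family, an arm ratio or a share of the guides. For miR-301a-3p, a relative with the shifted seed, IL-1β replicate 1 reached 43.2 normalized CPM, and replicates 2 to 4 were between 20.5 and 23.8 (gap 0.852 of the range). For miR-29c-3p, vehicle replicate 4 was at 0 against 1.87 to 2.12 (gap 0.884), and for miR-126a-3p, vehicle replicate 3 was at 1.87 and the other vehicle libraries at 0 (gap 1 of the range), both on at most 3 counts per library.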

How the results depend on the processing

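None of the 6 members was called under any of 15 alternatives (0 each time), and their adjusted p was never below 0.443 over 89 fits, of which 84 kept the direction. The directions that turned did so when a library was left out: those fits gave -0.092 to 0.012 for miR-148a-3p, -0.16 to 0.14 for miR-148a-5p, -0.045 to 0.12 for miR-152-5p and, for the arm ratio of miR-148a, -0.12 to 0.18. The single reversals were 0.012 for miR-148a-3p (without vehicle replicate 2), -0.16 for miR-148a-5p and -0.12 for the miR-148a arm ratio (both without IL-1β replicate 4), and -0.045, -0.044 and -0.017 for miR-152-5p (without vehicle replicate 1, IL-1β replicate 1 or IL-1β replicate 3). The share of miR-148b-3p in the 3p counts, lower by 0.110 percentage points with IL-1β, became higher by 0.0385 without vehicle replicate 3, and lay between -0.288 and 0.0385 over the fits that left out a library. The cause was not tested. The number of miRNAs called was 28 with 1 factor of unwanted variation in the model and ranged from 6 (without vehicle replicate 4) to 19 (without IL-1β replicate 4), with 7 without vehicle replicate 2 or IL-1β replicate 3. With the replicate block it was 19. Whether the replicate numbers pair the libraries could not be decided from 4 libraries per group. Deviations of same-numbered libraries correlated at 0.171, -0.345, 0.101 and -0.183 over 195 miRNAs. The own number correlated best for replicates 1 and 3, and another number for replicates 2 and 4. DESeq2 gave no adjusted p for miR-148b-5p, which also dropped out at a mean of at least 10 counts. Depth limits miR-148b-5p most, with 31 counts in all.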

Other observations

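The rise of the 5p share of miR-148a in IL-1β replicate 4 was one of several in that library. Among 24 hairpins with a mean of at least 50 counts in both arms, 4 had a log2 ratio of 5p to 3p in IL-1β replicate 4 that exceeded the mean of replicates 1 to 3 by over 0.5, and 0 fell below it by as much. miR-148a was one of the 4, with an excess of 0.74. In the other 7 libraries, 0 to 3 hairpins exceeded their group by over 0.5 and 0 to 2 fell below by as much, and the deviation of miR-148a was between -0.43 and 0.09. These values were looked at after the share of miR-148a-5p had been seen, and no test was made.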
